A study of Homo sapiens with 12 samples.

Results

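VAL is an established cell line from a diffuse large B-cell lymphoma, a fast-growing tumour of mature B cells. The cells were exposed to 300 nM AZ5576, a selective inhibitor of the kinase CDK9, and poly(A)+ RNA was sequenced after 6 h and after 3 h. The question here is what continued inhibitor did between those hours, so the 2 libraries collected at 6 h were set against the 2 collected at 3 h, and no untreated library entered the contrast. These 4 libraries are part of 12, which also hold VAL at 0 h, with no inhibitor per the labels, and OCI-LY3, a line from the same kind of lymphoma, at 6 h, 3 h and 0 h, 2 libraries each. No genotype or transgene separates the groups within a line; VAL at 0 h is used below only to show where a level stood at the start. Nothing in the labels says that libraries of a group came from separate cultures, so the p-values rest on a spread between libraries that may be technical. That spread was estimated over all 6 groups. Libraries of a group differed more in VAL at 6 h and 3 h than elsewhere in the series.

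CDK9, with a T-type cyclin, forms P-TEFb, the complex that phosphorylates paused RNA polymerase II and its pausing factors so that elongation can proceed. In unstressed cells much P-TEFb is held inactive in the 7SK small nuclear RNA particle by HEXIM proteins, and it can be drawn out of that store. Messages with a short life, such as those of MCL1 and of immediate-early genes, are the first to be lost when elongation stops, while stable messages outlast it. Poly(A)+ RNA is the balance of both processes, and a level in CPM (counts scaled to library size) is a share of all messages, so less synthesis of one message and slower decay of the others cannot be told apart, nor can fewer cells of a kind and less RNA per cell.

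VAL depths were 28303815 and 25321061 counts at 6 h, against 30393475 and 27129753 at 3 h. Mitochondrially encoded messages held 6.9% and 5.15% of counts at 6 h and 4.68% and 3.17% at 3 h, and ribosomal protein messages 19.6% and 23.2% at 6 h and 15.1% and 18.2% at 3 h. The 10 B-cell markers were all detected, with a summed level of 3845 to 3878 CPM at 6 h and 4257 to 4261 at 3 h. The erythroid list stayed at or below 0.151 CPM. The library numbered 1 stood apart from that numbered 2 at both treated times: the log2 difference between replicates had an SD over genes of 0.588 at 6 h and 0.613 at 3 h, against 0.291 at 0 h. Across protein-coding genes this difference ran with annotated gene span, with a median of −0.32 at 6 h and −0.34 at 3 h for spans up to 5 kb and of 0.36 at 6 h and 0.39 at 3 h above 150 kb. All VAL libraries numbered 1 are marked as resubmitted in the labels; the part of that mark in the difference was not tested.

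Between 3 h and 6 h more genes fell than rose in share. Of 16374 genes tested, 1235 were higher at 6 h (7.54%), 2502 were lower (15.3%) and 12637 did not pass (77.2%). At least 2-fold, 692 genes were higher (4.23%) and 667 lower (4.07%). These and all adjusted p below are from edgeR's quasi-likelihood test on counts scaled by TMM (trimmed mean of M values), two-sided, adjusted by Benjamini-Hochberg over all genes tested, with 0.05 as the threshold; a log2 change is given as 6 h over 3 h with its standard error. Both 6 h libraries lay above both 3 h libraries for 3507 genes (21.4%) and below both for 4380 (26.7%), whether called or not. Of the 3737 genes called, 3735 had groups that did not overlap, so for a named gene this describes the levels and adds little to the call. Within each library number the change could be read from 1 pair, and the pairs share no library: over all genes tested the log2 changes of the pairs had a correlation of 0.82, a description over genes, which are not replicates.

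**Figure D1:**
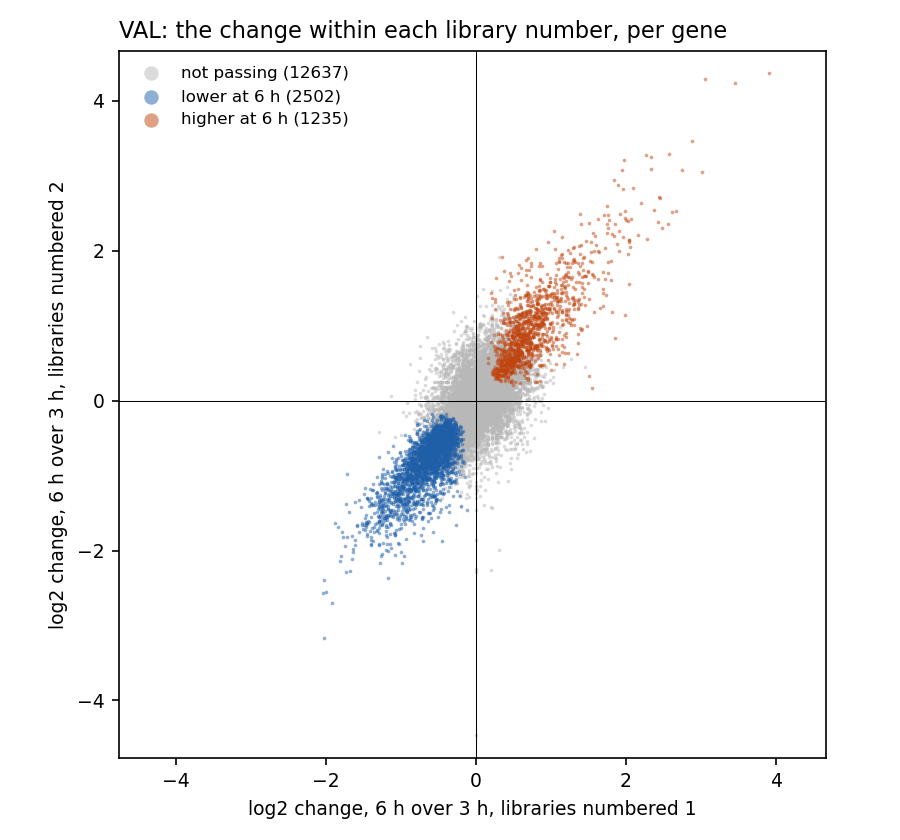
Each point is a gene; the x axis is the log2 ratio of 6 h over 3 h in the libraries numbered 1 and the y axis the same ratio in those numbered 2, on CPM with 0.5 added. The 2502 genes called lower (blue) sit at the lower left and the 1235 called higher (red) in the upper right.

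How many genes count as higher depended on the scale. Total counts without a composition factor gave 936 higher and 3396 lower genes, and upper-quartile factors gave 2314 higher and 1485 lower. Scaling to mitochondrially encoded messages gave 356 higher and 7672 lower, and scaling to ribosomal protein messages 426 higher and 5424 lower. The median log2 change of all genes was 0.00 on the scale used, 0.05 with DESeq2's size factors, −0.13 with no composition factor, 0.19 with upper-quartile factors, −0.76 by mitochondrial scaling and −0.50 by ribosomal scaling. Each scaling moved all genes by nearly the same amount, upward only with DESeq2's size factors and upper-quartile factors. A list median below 0 could thus turn positive only under those. None of the 3737 called genes was called in the opposite direction under any of these scalings. Fitted on the 4 libraries alone, with 2 residual degrees of freedom, 72 genes were higher and 32 lower. MCL1, MYC, PIM1 and CDC20 did not pass in that fit (adjusted p = 0.0907, 0.102, 0.0602 and 0.0529). TTK, HSPA8, BBC3 and CDKN1A did (adjusted p = 0.0453, 0.0453, 0.0453 and 0.0401). Of the genes selected for naming, 104 were weaker there, 30 the same and 1 reversed. Leaving out 1 library moved the count of genes at least 2-fold lower to 1030 without 3 h library 1 and to 405 without 3 h library 2.

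The machinery of mitosis fell as a group. Counts for this list and every later one are to be read beside the shares over all genes. Of 35 tested genes of the mitotic spindle and its checkpoint, 25 were lower at 6 h than at 3 h and none was higher, beside 15.3% lower and 7.54% higher over all genes, and the median log2 change was −0.75. It stayed below 0 under every scaling tried, from −0.57 with upper-quartile factors to −1.55 by mitochondrial scaling, and 25 to 29 members were lower when any 1 VAL library was left out, with 1 higher without 3 h library 1 or 6 h library 1. TTK, the spindle checkpoint kinase also called MPS1, had 3.59 and 1.85 CPM at 6 h, against 16.1 and 20.7 CPM at 3 h. Both 6 h libraries lay far below both 3 h libraries, and the log2 change was −2.73 ± 0.22 (adjusted p = 4.54e-05). TTK, in an interval on chromosome 6 from 80003887 to 80042527 (GRCh38, GENCODE release 29), was the lowest of the named protein-coding genes.

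CCNB2, a mitotic cyclin, had 40.7 and 48.3 CPM at 6 h, against 114 and 144 CPM at 3 h. NEK2, a centrosome kinase, had 28.9 and 25.0 CPM at 6 h, against 67.1 and 74.4 CPM at 3 h. BUB1, another checkpoint kinase, had 58.8 and 59.6 CPM at 6 h, against 146 and 163 CPM at 3 h, where it had been at 145 and 146 CPM with no inhibitor. The groups did not overlap for any of the 3 genes, and the log2 changes were −1.54 ± 0.13, −1.39 ± 0.11 and −1.38 ± 0.10 (adjusted p = 4.54e-05, 3.84e-05 and 2.93e-05). For BUB1 the 3 h level was 106% of the 0 h level and the 6 h level was 40.6% of it, so on the scale used its loss lay in the later interval. All levels given against 0 h are on that scale. There mitochondrially encoded messages had median log2 changes against 0 h of 1.41 at 3 h and 2.20 at 6 h. A scaling to them would lower every level given against 0 h. CDC20, the activator of the anaphase-promoting complex, had 61.5 and 69.9 CPM at 6 h, against 164 and 249 CPM at 3 h, and KIF11, a spindle motor, had 55.5 and 47.4 CPM at 6 h, against 126 and 120 CPM at 3 h; these 2 were chosen after their values were seen, to show their promoters.

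Promoters of mitotic genes carry a known arrangement of CCAAT boxes and a cell-cycle homology region (CHR), read by the NF-Y and MuvB complexes. Windows of 250 bases before to 50 after the start were taken from RefSeq (GRCh38.p14), which held 30 of the 35 mitotic genes and 9852 of 12629 tested protein-coding genes. CHR was searched as TTTGAA and the CCAAT box as CCAAT, on both strands; a CHR match can share letters with a heat-shock match. The windows of the mitotic list held CHR in 63.3% and CCAAT in 80% of cases, against 9.95% and 36.9% for tested protein-coding genes. Over all 35116 windows the shares were 15.2% and 34.6%. Windows of all genes called lower held CHR in 11.1%, against 8.68% for genes called higher. A match is a run of letters, not a bound site. The 4 windows below, in which capitals mark CHR and CCAAT matches, show CDC20 with 2 CHR and 2 CCAAT matches, CCNB2 with 1 and 4, KIF11 with 1 and 1, and NEK2 with 2 CCAAT matches and no CHR.
CDC20, chr1:43358731-43359030, plus strand: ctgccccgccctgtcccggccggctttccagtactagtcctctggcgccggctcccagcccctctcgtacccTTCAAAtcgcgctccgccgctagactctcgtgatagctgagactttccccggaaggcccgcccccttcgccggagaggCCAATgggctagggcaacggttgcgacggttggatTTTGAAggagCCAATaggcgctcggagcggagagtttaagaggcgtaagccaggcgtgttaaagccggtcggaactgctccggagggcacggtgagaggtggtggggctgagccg
CCNB2, chr15:59104896-59105195, plus strand: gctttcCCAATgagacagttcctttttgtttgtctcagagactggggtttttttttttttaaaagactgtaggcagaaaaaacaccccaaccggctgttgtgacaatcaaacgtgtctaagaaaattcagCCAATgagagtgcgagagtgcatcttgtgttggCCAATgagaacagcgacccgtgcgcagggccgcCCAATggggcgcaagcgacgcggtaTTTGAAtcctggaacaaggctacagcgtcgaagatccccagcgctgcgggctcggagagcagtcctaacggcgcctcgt
KIF11, chr10:92592880-92593179, plus strand: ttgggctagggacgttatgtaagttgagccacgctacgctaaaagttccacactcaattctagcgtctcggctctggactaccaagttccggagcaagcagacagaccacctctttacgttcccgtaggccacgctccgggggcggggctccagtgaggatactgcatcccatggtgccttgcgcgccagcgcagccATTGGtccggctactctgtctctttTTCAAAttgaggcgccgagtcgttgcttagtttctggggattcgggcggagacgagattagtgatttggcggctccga
NEK2, chr1:211675572-211675871, minus strand: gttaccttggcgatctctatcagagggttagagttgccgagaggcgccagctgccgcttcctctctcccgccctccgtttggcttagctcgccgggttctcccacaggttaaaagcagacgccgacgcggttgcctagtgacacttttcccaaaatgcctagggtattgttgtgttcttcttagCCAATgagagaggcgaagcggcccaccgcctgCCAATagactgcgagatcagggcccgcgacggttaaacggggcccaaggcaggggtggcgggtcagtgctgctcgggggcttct

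Of 40 tested genes of DNA replication 16 were lower and 3 higher, with a median of −0.25 that stayed at or below −0.05 under every scaling. GMNN, the inhibitor of replication licensing geminin, had 9.91 and 13.4 CPM at 6 h, against 23.7 and 39.7 CPM at 3 h (log2 −1.45 ± 0.22, adjusted p = 0.000854). CDC6, which loads the replicative helicase, fell by 1.41 ± 0.22 (adjusted p = 0.000972), and GINS1, a subunit of that helicase, by 0.67 ± 0.10 on the log2 scale (adjusted p = 0.000911). Against the majority, the transcription factor E2F2 had 87.4 and 94.6 CPM at 6 h, against 57.1 and 61.6 CPM at 3 h, and E2F3 had 28.3 and 30.9 CPM at 6 h, against 20 and 19.8 CPM at 3 h. Both rose, by 0.62 ± 0.09 and 0.57 ± 0.11 (adjusted p = 0.00101 and 0.00351), and both turned to −0.16 and −0.20 under mitochondrial scaling. Without 3 h library 2 the count of lower members was 12, and without 3 h library 1 it was 20.

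Of 21 tested cytosolic heat-shock genes 8 were lower and none higher, with a median of −0.32 that was below 0 under every scaling. HSPA8, the constitutive HSC70 chaperone, stood at 3053 and 3002 CPM at 0 h, 904 and 1568 CPM at 3 h, and 238 and 240 CPM at 6 h. DNAJA1, one of its J-domain partners, stood at 345 and 336 CPM at 0 h, 143 and 236 CPM at 3 h, and 34.4 and 39.6 CPM at 6 h. The 6 h libraries were closely matched and lay far below the 3 h libraries, which differed between numbers, and the log2 changes were −2.37 ± 0.20 for HSPA8 and −2.36 ± 0.19 for DNAJA1 (adjusted p = 5.66e-05 and 4.54e-05). HSPA8 spans chromosome 11 from 123057489 to 123063230 on the minus strand and overlaps the small nucleolar RNA gene SNORD14E. STIP1, the adaptor between HSP70 and HSP90, fell by 0.89 ± 0.16 and CHORDC1, an HSP90 cochaperone, by 0.64 ± 0.09 on the log2 scale (adjusted p = 0.0026 and 0.000787). The count of lower heat-shock genes was 5 without 6 h library 1, a setting in which 4 members were higher.

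The heat-shock element, searched as TTCNNGAA, was found in 21.1% of 19 windows of the heat-shock list, against 6.02% of tested protein-coding genes and 7.74% of all windows. The windows of HSPA8 and DNAJA1 are shown because both genes are among the 12 lowest; capitals mark the element, with 2 matches in HSPA8 and 1 in DNAJA1.
HSPA8, chr11:123062087-123062386, minus strand: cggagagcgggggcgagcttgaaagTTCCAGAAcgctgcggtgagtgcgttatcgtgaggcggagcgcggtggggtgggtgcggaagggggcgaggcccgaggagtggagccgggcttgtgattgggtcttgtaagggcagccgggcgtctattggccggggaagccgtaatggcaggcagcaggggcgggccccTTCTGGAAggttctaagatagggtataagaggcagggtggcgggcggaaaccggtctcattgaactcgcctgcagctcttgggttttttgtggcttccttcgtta
DNAJA1, chr9:33025023-33025322, plus strand: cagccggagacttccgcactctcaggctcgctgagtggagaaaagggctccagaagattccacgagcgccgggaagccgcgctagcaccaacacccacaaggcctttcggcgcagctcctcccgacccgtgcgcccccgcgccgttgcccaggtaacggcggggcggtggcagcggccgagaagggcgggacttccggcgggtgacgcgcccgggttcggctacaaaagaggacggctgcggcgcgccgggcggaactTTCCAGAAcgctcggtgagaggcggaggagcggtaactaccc

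In the endoplasmic reticulum, 7 of 22 folding genes were lower and none higher, with a median of −0.28 that was below 0 under every scaling. HSPA5, the chaperone BiP, stood at 506 and 496 CPM at 0 h, 90.3 and 140 CPM at 3 h, and 39.6 and 58.2 CPM at 6 h. CALR, the lectin chaperone calreticulin, had 85.6 and 142 CPM at 6 h, against 277 and 399 CPM at 3 h. Groups did not overlap for either gene (log2 −1.24 ± 0.20 and −1.57 ± 0.21, adjusted p = 0.00148 and 0.000524). SEL1L, an adaptor of the degradation ligase for misfolded proteins, fell by 1.12 ± 0.15, and DNAJB11, a J-domain cochaperone of BiP, by 0.91 ± 0.17 on the log2 scale (adjusted p = 0.000467 and 0.00321). Without 6 h library 1, 2 members were higher.

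Of 38 genes that build ribosomes in the nucleolus 21 were lower and 1 was higher, with a median of −0.58 that stayed between −0.39 and −1.36 across scalings. GNL3, the nucleolar GTPase nucleostemin, had 35.3 and 52.1 CPM at 6 h, against 107 and 166 CPM at 3 h (log2 −1.65 ± 0.21, adjusted p = 0.000346). GRWD1, a ribosome assembly factor, had 6.66 and 5.66 CPM at 6 h, against 14.0 and 22.7 CPM at 3 h. RRN3, the initiation factor of RNA polymerase I, had 12.6 and 17.9 CPM at 6 h, against 31.8 and 39.2 CPM at 3 h. UBTF, the factor that keeps ribosomal DNA open, fell by 0.83 ± 0.10 on the log2 scale (adjusted p = 0.0003); for all 4 the groups did not overlap. WDR43, a small-subunit assembly factor, was the exception at 0.48 ± 0.16 (adjusted p = 0.0474), a call that was lost without 3 h library 1 (adjusted p = 0.188) or 6 h library 2 (adjusted p = 0.26) and turned to −0.31 by mitochondrial scaling. The E-box, searched as CACGTG, was found in 41.4% of 29 windows of this list, against 10.1% of tested protein-coding genes.

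Of 86 tested cytosolic ribosomal protein genes 35 were higher and 2 lower, with a median of 0.49 on the scale used, −0.30 by mitochondrial scaling and −0.01 by their own scaling. RPS23 had 1082 and 1328 CPM at 6 h, against 775 and 901 CPM at 3 h, and RPL22 had 944 and 1182 CPM at 6 h, against 637 and 773 CPM at 3 h. The count moved with single libraries: 3 members were higher without 3 h library 1 or without 6 h library 2, and 75 without 3 h library 2 or without 6 h library 1. The 2 lower members were RPL39L, a testis-enriched copy, and RPL7L1, a ribosome biogenesis factor that the list holds by its name, at −1.6 ± 0.31 and −0.95 ± 0.11 (adjusted p = 0.00381 and 0.000223). Among host genes of small nucleolar RNAs 10 of 23 were higher and none lower, with a median of 0.50 that was −0.28 by mitochondrial scaling; 2 were higher without 6 h library 2 against 4 without 3 h library 1, 11 without 3 h library 2 and 12 without 6 h library 1.

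All 13 mitochondrially encoded messages, which a separate polymerase transcribes, had a positive change, and 11 were called higher, with a median of 0.77 on the scale used and 0.26 by ribosomal scaling. MT-ND2 had 3865 and 3517 CPM at 6 h, against 2378 and 1867 CPM at 3 h (log2 0.80 ± 0.16, adjusted p = 0.00509). The called members numbered 6 without 6 h library 1 and 2 without 3 h library 2, where the calls of MT-ND1, MT-ND6 and MT-CO2 were among those lost (adjusted p = 0.0708, 0.0535 and 0.0593). Of the nuclear genes for the mitochondrial ribosome 37 of 77 were lower and none higher, with a median of −0.51 that was below 0 under every scaling; 21 were lower without 3 h library 2, 22 without 6 h library 1 and 54 without 3 h library 1. MRPL17 had 5.64 and 4.90 CPM at 6 h, against 13.6 and 21.0 CPM at 3 h, and MRPL58 had 5.29 and 7.27 CPM at 6 h, against 15.5 and 26.1 CPM at 3 h. MRPS9 and MRPS22 fell by 1.02 ± 0.13 and 1.32 ± 0.17 on the log2 scale (adjusted p = 0.00033 and 0.00042).

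**Figure D2:**
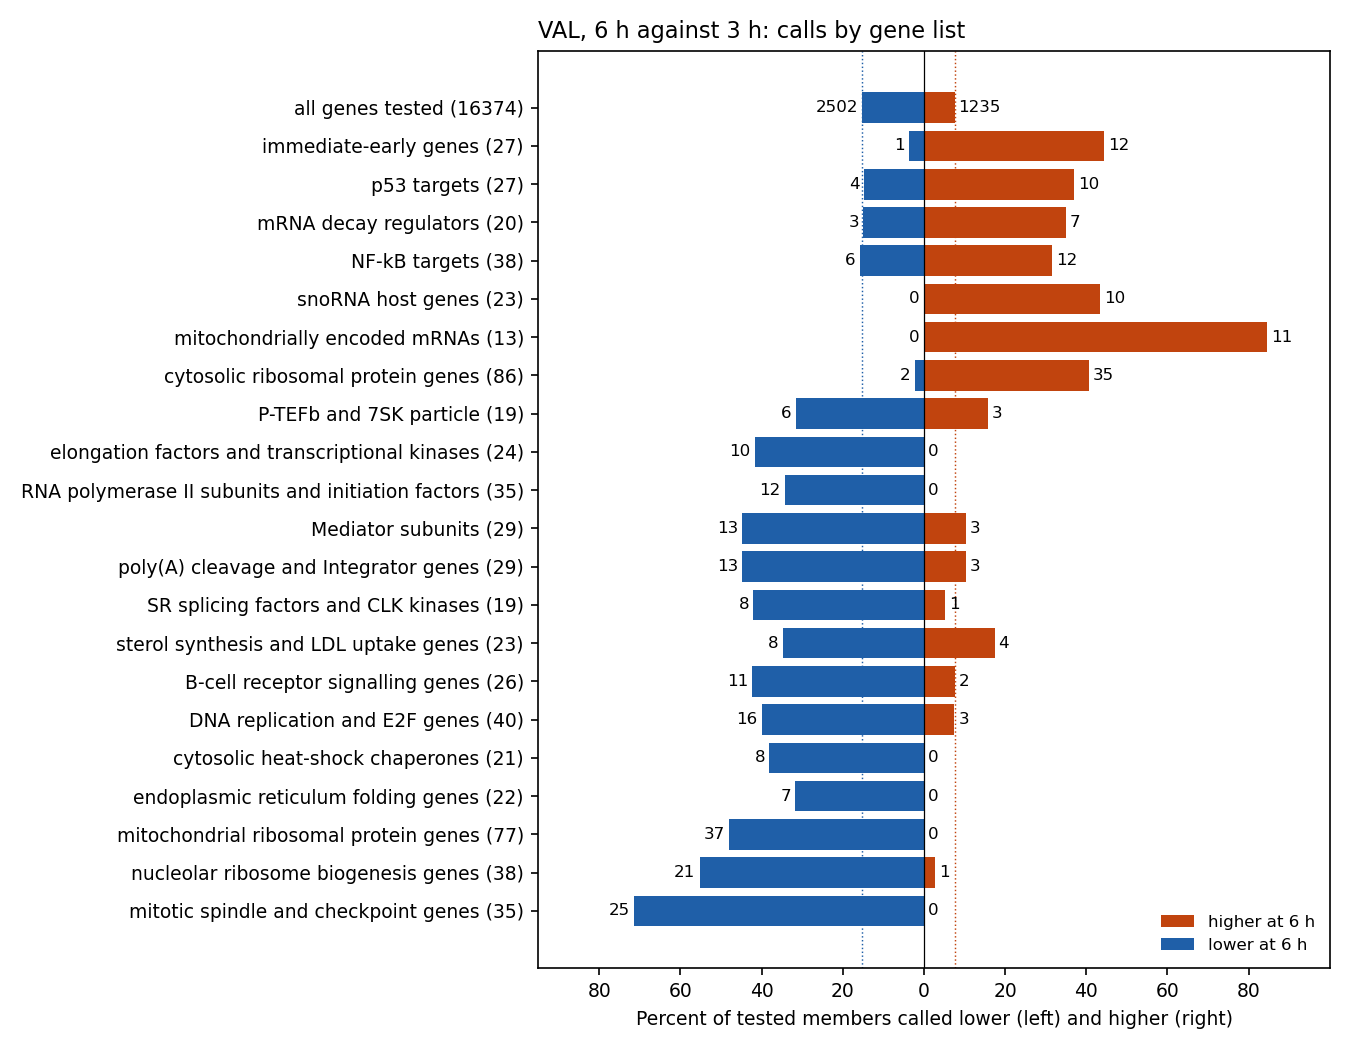
Bars give the percent of tested members called higher at 6 h (red, right) and lower (blue, left) for 21 gene lists and for all genes, with counts at the bar ends and the number tested in brackets. Dotted lines stand at 7.54% and 15.3%, the shares over all genes; mitotic genes reach 25 of 35 lower and mitochondrially encoded messages 11 of 13 higher.

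Of 20 genes chosen for CDK9 biology and B-cell survival, 13 were higher at 6 h and none lower, with a median of 0.72 that was −0.01 by mitochondrial scaling. The members were chosen with earlier results of these data known. MCL1, the anti-apoptotic BCL2 family member that CDK9 inhibitors are known to deplete, stood at 238 and 236 CPM at 0 h, 75.4 and 52.9 CPM at 3 h, and 129 and 115 CPM at 6 h. Both 6 h libraries were above both 3 h libraries and below both 0 h libraries; the log2 change was 0.93 ± 0.16 (adjusted p = 0.00175), and 0.18 by mitochondrial scaling. The 3 h level was 27.1% and the 6 h level 51.6% of the 0 h level; these shares use the same 3 h libraries as the change itself.

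MYC, the growth-promoting transcription factor, had 212 and 221 CPM at 6 h, against 140 and 129 CPM at 3 h (log2 0.69 ± 0.09, adjusted p = 0.000458), and 137 and 135 CPM at 0 h. BCL6, the germinal-centre repressor, had 275 and 277 CPM at 6 h, against 153 and 127 CPM at 3 h (log2 0.98 ± 0.10, adjusted p = 0.000136), and 127 in each 0 h library. On the scale used these 2 genes were near their 0 h level at 3 h and above it at 6 h, where MYC stood at 159% and BCL6 at 217% of it. Their log2 changes of 6 h over 0 h, 0.67 and 1.12, were below the median of 2.20 for mitochondrially encoded messages. PIM1, a short-lived survival kinase, stood at 125 and 122 CPM at 0 h, 42.8 and 38.3 CPM at 3 h, and 83.7 and 90.5 CPM at 6 h (log2 1.10 ± 0.10, adjusted p = 6.12e-05). By mitochondrial scaling the change was −0.08 for MYC, 0.22 for BCL6 and 0.34 for PIM1.

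IRF4, a B-cell lineage factor, had 5.86 and 4.94 CPM at 6 h, against 3.53 and 2.55 CPM at 3 h, and reached 19.7% of its 0 h level. BCL2A1, another anti-apoptotic member, had 9.49 and 6.99 CPM at 6 h, against 5.03 and 5.73 CPM at 3 h. The calls of IRF4, BCL2A1, EGR1 and IER2 were each lost on leaving out 1 library: IRF4 without 3 h library 2 or 6 h library 1 (adjusted p = 0.0548 and 0.0552), BCL2A1 without 3 h library 1 or 6 h library 1 (0.0535 and 0.0997), EGR1 without 3 h library 2 or 6 h library 1 (0.0932 and 0.0716), and IER2 without 3 h library 1 or 6 h library 2 (0.0561 and 0.0666). BCL2, the anti-apoptotic founder of its family, had 765 and 334 CPM at 6 h, against 509 and 190 CPM at 3 h. Its groups overlapped and it did not pass (log2 0.65 ± 0.41, adjusted p = 0.293), while within each library number the log2 ratio of 6 h over 3 h was positive, at 0.59 and 0.81; without 3 h library 1 the change was 1.53 (adjusted p = 0.00888), and without 6 h library 1 it was −0.07. With library number added to the fit as a block, BCL2 passed (adjusted p = 0.0433). BCL2L1, which encodes BCL-xL, had 26.4 and 26.1 CPM at 6 h, against 20.7 and 23.4 CPM at 3 h, and did not pass (adjusted p = 0.138).

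**Figure D3:**
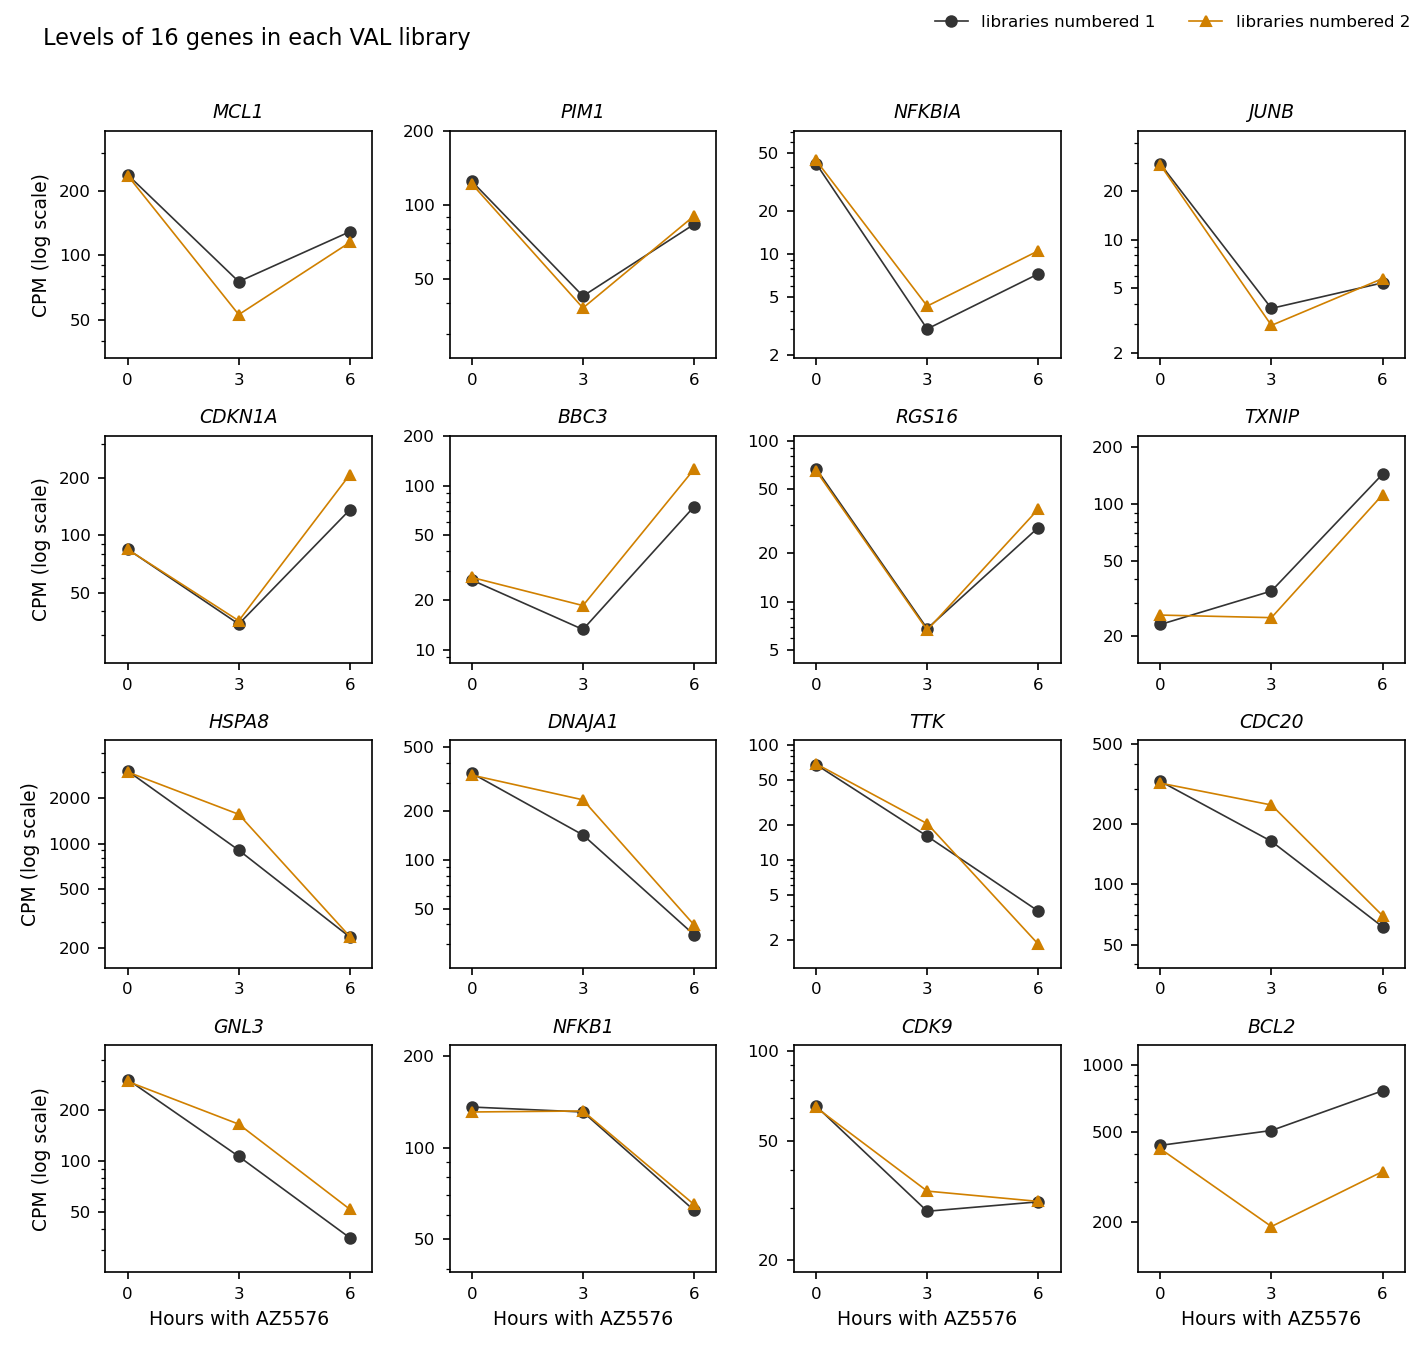
Levels of 16 genes in each VAL library in CPM on a log axis, against hours with inhibitor; black circles are libraries numbered 1 and orange triangles those numbered 2. MCL1, PIM1, NFKBIA, JUNB and RGS16 dip at 3 h and are higher at 6 h (JUNB at −0.01 by mitochondrial scaling), CDKN1A, BBC3 and TXNIP end above their 0 h level, and HSPA8, DNAJA1, TTK, CDC20 and GNL3 fall at both steps; in BCL2 the library numbers part.

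Among BH3-only genes, which trigger apoptosis, BBC3 (PUMA) had 74.5 and 126 CPM at 6 h, against 13.3 and 18.6 CPM at 3 h. Every 6 h library was well above every 3 h library (log2 2.65 ± 0.23, adjusted p = 6.25e-05), and it stood at 369% of its 0 h level. PMAIP1 (NOXA) rose by 0.85 ± 0.19 and BCL2L11 (BIM) by 0.67 ± 0.14 (adjusted p = 0.00761 and 0.00606). By mitochondrial scaling neither passed, at 0.08 and −0.08. Of the pro-apoptotic list 27.3% were higher and 18.2% lower, beside 7.54% and 15.3% over all genes. BIK had 25.8 and 42.4 CPM at 6 h, against 67.9 and 97.1 CPM at 3 h, and BMF had 8.55 and 6.99 CPM at 6 h, against 12.9 and 13.7 CPM at 3 h. Both fell (log2 −1.28 ± 0.21 and −0.77 ± 0.18, adjusted p = 0.00163 and 0.0104), so of 11 tested pro-apoptotic genes 3 were higher and 2 lower, or 4 lower without 3 h library 1.

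Targets of p53, the stress-responsive tumour suppressor, had 10 of 27 members higher and 4 lower (37% and 14.8%, beside 7.54% and 15.3% over all genes). The median was 0.08 on the scale used, −0.06 with no composition factor, −0.42 by ribosomal scaling and −0.70 by mitochondrial scaling. The lower members numbered 1 without 3 h library 2 and 2 without 6 h library 1. CDKN1A, the cyclin-dependent kinase inhibitor p21, stood at 84.5 and 84.3 CPM at 0 h, 34.2 and 35.6 CPM at 3 h, and 136 and 208 CPM at 6 h. At 6 h both libraries exceeded every earlier one (log2 2.30 ± 0.18, adjusted p = 3.7e-05; 1.55 by mitochondrial scaling). GADD45A, a growth-arrest gene, had 8.36 and 11.3 CPM at 6 h, against 2.48 and 2.47 CPM at 3 h, and AEN, an apoptosis-enhancing nuclease, had 106 and 176 CPM at 6 h, against 50.3 and 54.4 CPM at 3 h. Their log2 changes were 1.98 ± 0.18 and 1.42 ± 0.19 (adjusted p = 6.77e-05 and 0.000405). PPM1D, the phosphatase WIP1, had 6.28 and 18.7 CPM at 6 h, against 1.5 and 2.95 CPM at 3 h; its log2 change of 2.50 ± 0.45 (adjusted p = 0.00245) was 3.10 without 6 h library 1 and 1.52 without 6 h library 2. TIGAR, a fructose bisphosphatase, and POLH, a DNA polymerase of lesion bypass, fell by 0.54 ± 0.14 and 0.66 ± 0.17 on the log2 scale (adjusted p = 0.0176 and 0.0166); the TIGAR call was lost without 3 h library 2 or 6 h library 1 (adjusted p = 0.0846 and 0.0912), and the POLH call without 3 h library 1 or 6 h library 2 (adjusted p = 0.0732 and 0.0848).

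Of 27 immediate-early genes, which growth signals switch on within minutes without new protein synthesis, 12 were higher and 1 lower, with a median of 0.77 that was 0.01 by mitochondrial scaling; 2 were lower without 6 h library 1. KLF10, a TGF-beta-induced zinc-finger factor, had 58.0 and 39.8 CPM at 6 h, against 22.9 and 13.9 CPM at 3 h (log2 1.41 ± 0.22, adjusted p = 0.00113). DUSP2, a phosphatase that dampens MAP kinases, had 11.2 and 10.7 CPM at 6 h, against 4.34 and 4.82 CPM at 3 h (log2 1.26 ± 0.16, adjusted p = 0.000399), and IER5 rose by 0.77 ± 0.13 (adjusted p = 0.00166). Both remained far below 0 h, DUSP2 at 14.5% and IER5 at 21.6% of that level. By mitochondrial scaling neither passed, at 0.48 and 0.01. JUNB, an AP-1 subunit, had 5.41 and 5.75 CPM at 6 h, against 3.76 and 2.95 CPM at 3 h (log2 0.73 ± 0.15, adjusted p = 0.0045; −0.01 by mitochondrial scaling). FOS, its partner, was under 1 CPM throughout, with 0.567 and 0.903 at 6 h, against 0.261 and 0.0398 at 3 h, and did not pass (adjusted p = 0.0507); the call passed without 3 h library 1 or 6 h library 1 (adjusted p = 0.0204 and 0.0496). With library number as a block in the fit, FOS passed (adjusted p = 0.0359). SRF, the factor that drives many of the immediate-early genes, fell by 0.57 ± 0.13 on the log2 scale (adjusted p = 0.00782).

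Of 20 mRNA decay regulators, which shorten the life of messages, 7 were higher and 3 lower (35% and 15%, beside 7.54% and 15.3% over all genes). ZFP36L1, a binder of AU-rich elements, had 39.3 and 46.6 CPM at 6 h, against 13.9 and 10.3 CPM at 3 h (log2 1.83 ± 0.15, adjusted p = 4.77e-05), and stood at 111% of its 0 h level. Its relative ZFP36 rose by 0.92 ± 0.16 (adjusted p = 0.00167). By mitochondrial scaling ZFP36 did not pass, at 0.14. The deadenylase subunits CNOT3 and CNOT7 fell by 0.71 ± 0.11 and 0.57 ± 0.10 on the log2 scale (adjusted p = 0.000873 and 0.00175). Without 6 h library 1, 5 members were lower. The median of the list was −0.03 and took either sign across scalings, from 0.16 with upper-quartile factors to −0.78 by mitochondrial scaling.

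In the NF-kB list 12 of 38 members were higher and 6 lower (31.6% and 15.8%, beside 7.54% and 15.3% over all genes). By mitochondrial scaling none was higher and 13 were lower, beside 356 higher and 7672 lower of all 16374 genes. By ribosomal scaling 2 were higher and 8 lower, beside 426 and 5424. NFKBIA, which encodes the inhibitor IkB-alpha, stood at 42.4 and 44.6 CPM at 0 h and 3.01 and 4.34 CPM at 3 h. At 6 h it had 7.26 and 10.5 CPM (log2 1.28 ± 0.20, adjusted p = 0.00114). By mitochondrial scaling the change was 0.50 and did not pass. The subunit gene NFKB1 stood at 136 and 131 CPM at 0 h, 131 and 132 CPM at 3 h, and 62.2 and 65.0 CPM at 6 h. On the scale used it was at its starting level at 3 h and at 47.7% of it at 6 h (log2 −1.05 ± 0.09, adjusted p = 5.73e-05). RELB and NFKB2, subunits of the alternative pathway, fell by 1.22 ± 0.14 and 0.86 ± 0.12, and TNIP1, an inhibitor that acts with A20, by 1.15 ± 0.13 on the log2 scale (adjusted p = 0.000181, 0.000599 and 0.000172). The median of the list was 0.30 on the scale used, −0.20 by ribosomal scaling and −0.48 by mitochondrial scaling, and the count of higher members was 6 without 6 h library 1 and 8 without 3 h library 2.

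CDK9 itself had 31.4 and 31.5 CPM at 6 h, against 29.2 and 34.1 CPM at 3 h, and 65.6 and 64.9 CPM at 0 h. The groups overlapped and it did not pass (log2 −0.01 ± 0.11, adjusted p = 0.971). It was lower by mitochondrial scaling (−0.80, adjusted p = 0.0231) and by ribosomal scaling (−0.49, adjusted p = 0.0357). Its cyclin partner CCNT1 had 43.0 and 63.3 CPM at 6 h, against 27.9 and 28.8 CPM at 3 h, and CCNT2 had 28.1 and 32.6 CPM at 6 h, against 21.3 and 15.6 CPM at 3 h. Both cyclins rose, by 0.91 ± 0.17 and 0.72 ± 0.17 (adjusted p = 0.00281 and 0.0104), with 0.15 for CCNT1 and −0.01 for CCNT2 by mitochondrial scaling. LARP7, which binds 7SK RNA, and MLLT3, a subunit of the super elongation complex, each fell by 0.61 on the log2 scale (SE 0.12 and 0.10, adjusted p = 0.00357 and 0.00155). HEXIM1, a 7SK particle inhibitor of CDK9, and POLR2A, the largest polymerase II subunit, did not pass (adjusted p = 0.377 and 0.53). By mitochondrial scaling POLR2A was lower (−0.92, adjusted p = 0.0113) and HEXIM1 did not pass (−0.60, adjusted p = 0.0792). Over the 19 members of the P-TEFb and 7SK list, 3 were higher and 6 lower. Without 3 h library 1, 5 were higher, and 3 and 2 were lower without 3 h library 2 and 6 h library 2.

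Of 24 elongation factors and transcriptional kinases 10 were lower and none higher (median −0.27). PAF1 and CTR9, subunits of the PAF elongation complex, had 11.5 and 13.1 CPM and 27.3 and 33.3 CPM at 6 h, against 26.9 and 47.7 CPM and 66.8 and 75.6 CPM at 3 h. RTF1, which works with that complex, fell by 0.87 ± 0.09, and CCNH, the cyclin of CDK7, by 1.06 ± 0.14 on the log2 scale (adjusted p = 0.000154 and 0.000444). Among polymerase II subunits and initiation factors 12 of 35 were lower and none higher (median −0.27), TAF4, POLR2D, ERCC3 and GTF2H1 among them with falls between 0.58 and 0.84 on the log2 scale; the count was 6 without 3 h library 2 and 18 without 3 h library 1, and 3 were higher without 6 h library 1. Of 29 Mediator subunits 13 were lower and 3 higher, or 1 higher without 6 h library 2 (median −0.40). MED20 and MED4 had 11.9 and 12.1 CPM and 16.9 and 25.2 CPM at 6 h, against 21.0 and 26.6 CPM and 36.1 and 44.6 CPM at 3 h. MED26, the subunit that recruits elongation factors, rose instead, with 8.09 and 18.7 CPM at 6 h, against 3.85 and 5.89 CPM at 3 h (log2 1.46 ± 0.32, adjusted p = 0.00759; 0.74 without 6 h library 2). All 3 medians were below 0 under every scaling tried.

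In the list of poly(A) cleavage and Integrator genes 13 of 29 were lower and 3 higher (median −0.37, below 0 under every scaling). FIP1L1, a cleavage factor subunit, had 3.71 and 5.04 CPM at 6 h, against 11.1 and 16.5 CPM at 3 h (log2 −1.67 ± 0.20, adjusted p = 0.00025), and INTS8, an Integrator subunit, had 56.7 and 55.8 CPM at 6 h, against 100 in each 3 h library. PCF11, a termination factor, rose by 0.98 ± 0.12 and INTS5 by 1.16 ± 0.15 (adjusted p = 0.000318 and 0.00037). By mitochondrial scaling neither passed, at 0.23 and 0.39. Of 19 SR splicing factors and CLK kinases 8 were lower and 1 higher (median −0.24, below 0 under every scaling). SRSF3 had 212 and 291 CPM at 6 h, against 439 and 555 CPM at 3 h, and SRSF1 and SRSF7 fell by 0.94 ± 0.13 and 0.97 ± 0.17 on the log2 scale (adjusted p = 0.000521 and 0.00178). CLK1, a kinase that phosphorylates these factors, rose by 0.75 ± 0.17 (adjusted p = 0.00783) and turned to −0.01 by mitochondrial scaling.

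The highest and lowest protein-coding genes with a mean of at least 5 CPM show how wide the later change was. GPR157, a G protein-coupled receptor, had 10.9 and 15.2 CPM at 6 h, against 1.05 and 0.915 CPM at 3 h (13.2-fold, log2 3.72 ± 0.28, adjusted p = 3.52e-05). It had been at 0.761 and 1.20 CPM at 0 h, so on the scale used it was flat over the first interval and rose in the second. HHEX, a homeobox factor of blood cells, had 9.15 and 16.6 CPM at 6 h, against 1.96 and 1.35 CPM at 3 h (log2 2.94 ± 0.30, adjusted p = 0.000177). RASL11A, a Ras-like GTPase, had 99.5 and 114 CPM at 6 h, against 23.4 and 20.9 CPM at 3 h, and PRELP, a matrix proteoglycan, had 31.3 and 27.5 CPM at 6 h, against 5.29 and 3.82 CPM at 3 h. The highest and lowest genes were picked only among those whose 6 h and 3 h groups did not overlap. The lack of overlap in these genes is therefore a condition of the choice and not a result.

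RGS16, a brake on G protein signalling, and SLC30A1, a zinc exporter, had been reduced by 3 h to 10.2% and 11.1% of their 0 h levels and stood at 50.4% and 54.0% at 6 h (log2 2.30 ± 0.15 and 2.28 ± 0.22, adjusted p = 2.93e-05 and 8.7e-05). PHLDA1 rose by 2.21 ± 0.28 and KLF6, a zinc-finger factor, by 2.16 ± 0.41 (adjusted p = 0.00037 and 0.00315); KLF6 gave 3.11 without 3 h library 1 and 1.57 without 6 h library 1. The carboxypeptidase M gene, at 2.61 ± 0.29 (adjusted p = 0.000191), overlaps MDM2 on the other strand, and without strand in the library their reads cannot be told apart. The annotated spans of ARRDC3, BCL2L1, BCL2L11, BLNK, CCNH, CCNT2, CNOT3, CNOT7, CTR9, DNAJB11, FIP1L1, GNL3, GRWD1, HMGCS1, INTS8, JUNB, KEAP1, LARP7, MAX, MCL1, MED26, MRPS22, MXD1, PCF11, POLH, RPL22, RPS23, RRN3, SRSF1 and UBTF overlap another gene too, with the same limit. BBC3, CDKN1A and PPM1D complete the 12 highest. By mitochondrial scaling the lowest of the 12 was KLF6 at 1.45. The 12 were picked as the highest changes, and that scaling moved the median of all genes to −0.76. A shift of that size could not turn them, so this adds little.

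At the other end, GCLC, the catalytic subunit of the first step of glutathione synthesis, had 2.46 and 2.14 CPM at 6 h, against 11.4 and 14.9 CPM at 3 h (log2 −2.51 ± 0.18, adjusted p = 2.93e-05). KEAP1, which holds the antioxidant factor NRF2 in check, had 7.94 and 6.04 CPM at 6 h, against 16.5 and 26.1 CPM at 3 h (log2 −1.59 ± 0.20, adjusted p = 0.00034). Both lie in a list of 19 NRF2 and glutathione genes of which 5 were lower and none higher; without 6 h library 1, 3 were lower and 3 higher. MCMBP, a binding partner of the replicative helicase, had 19.6 and 23.4 CPM at 6 h, against 69.6 and 99.6 CPM at 3 h (log2 −1.98 ± 0.16, adjusted p = 4.44e-05). PDCD10, a scaffold of STRIPAK kinases, and NINJ1, a protein of plasma membrane rupture, fell by 1.98 ± 0.18 and 2.11 ± 0.24 on the log2 scale (adjusted p = 7.83e-05 and 0.000225). GPKOW, a spliceosome protein, and PBDC1 fell by 2.05 ± 0.21 and 2.40 ± 0.34 (adjusted p = 0.000114 and 0.000627). KAT5, the acetyltransferase TIP60, SAP30, a subunit of the SIN3 deacetylase complex, and ARHGEF39 fell by 2.12, 2.26 and 2.37, and each overlaps a gene on the other strand.

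Among B-cell receptor signalling genes 11 of 26 were lower and 2 higher, or 1 higher without 3 h library 2 or 6 h library 1 (median −0.23, below 0 under every scaling). BLNK, the adaptor that links the receptor to its effectors, had 18.3 and 16.3 CPM at 6 h, against 37.8 and 41.3 CPM at 3 h (log2 −1.19 ± 0.11, adjusted p = 6.3e-05). The kinases LYN and BLK, which start the signal, had 299 and 321 CPM and 79.5 and 83.9 CPM at 6 h, against 538 and 546 CPM and 142 and 174 CPM at 3 h. PTPN6, the phosphatase SHP-1, which restrains the signal, fell by 1.04 ± 0.12 on the log2 scale (adjusted p = 0.00026). BCL10, the adaptor between receptor and NF-kB, rose, with 6.16 and 10.4 CPM at 6 h, against 2.45 and 2.99 CPM at 3 h (log2 1.6 ± 0.24, adjusted p = 0.0008). VAV2, an exchange factor, rose by 0.37 ± 0.10 (adjusted p = 0.0204), turned to −0.40 by mitochondrial scaling, and lost its call without 3 h library 2 or 6 h library 1 (adjusted p = 0.0753 and 0.0527). In the list of germinal-centre and plasma-cell factors 4 of 24 were higher and 4 lower, with 7 higher without 3 h library 1 and 2 without 3 h library 2. As shares of that list 16.7% were higher and 16.7% lower, beside 7.54% and 15.3% over all genes. SPIB and SPI1, related ETS factors, fell by 1.16 ± 0.14 and 0.80 ± 0.12 on the log2 scale (adjusted p = 0.00026 and 0.000889), while BCL6 and IRF4 rose.

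Of 3 glucose sensing genes 2 were higher and none lower, with a median of 1.84. TXNIP, which limits glucose uptake and responds to the sugar-sensing factor MondoA, had 144 and 112 CPM at 6 h, against 34.6 and 25.0 CPM at 3 h (log2 2.10 ± 0.17, adjusted p = 4.54e-05). Its relative ARRDC3 had 8.17 and 6.18 CPM at 6 h, against 2.32 and 1.67 CPM at 3 h (log2 1.84 ± 0.20, adjusted p = 0.000161), and both stayed above 1 by mitochondrial scaling. Sterol genes split, with 8 of 23 lower and 4 higher. MSMO1, a demethylase of sterol synthesis, had 110 and 141 CPM at 6 h, against 57.0 and 54.1 CPM at 3 h. HMGCS1, an enzyme early in that pathway, fell by 0.83 ± 0.12 on the log2 scale (adjusted p = 0.000764). MXD1, a MAX-binding antagonist of MYC, had 14.9 and 16 CPM at 6 h, against 7.25 and 4.82 CPM at 3 h, while MAX had 13.0 and 14.8 CPM at 6 h, against 30.6 and 48.1 CPM at 3 h.

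Markers of other cells were low, with exceptions named after their values were seen. The summed level of 12 myeloid markers was 9.98 to 17.1 CPM at 6 h and 1.43 to 1.76 CPM at 3 h; S100A9, ELANE and FCGR3A were at 0 throughout. MPO, the neutrophil peroxidase, had 7.19 and 13.2 CPM at 6 h, against 0.425 and 0.199 CPM at 3 h, and no count at 0 h (log2 4.96 ± 0.46, adjusted p = 0.000181; 5.64 without 3 h library 1). CD14, a monocyte coreceptor, had 1.40 and 2.85 CPM at 6 h, against 0.294 and 0.358 CPM at 3 h. The 14 T-cell and NK-cell markers summed to 60.3 to 76.8 CPM at 6 h and 118 to 153 CPM at 3 h, nearly all from LCK, which had 53.1 and 70.7 CPM at 6 h, against 111 and 145 CPM at 3 h. The 12 epithelial and stromal markers summed to 13.2 to 20.6 CPM at 6 h and 6.17 to 7.88 CPM at 3 h, with ACTA2, which overlaps FAS on the other strand, at 12.4 and 20.2 CPM at 6 h and 5.65 and 6.53 CPM at 3 h. The part of other cells in any result was not tested.

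Gene span and type divided the calls. Among protein-coding genes the share called higher fell with span, being 12.4% up to 5 kb, 8.72% from 5 to 20 kb, 7.22% from 20 to 60 kb, 5.24% from 60 to 150 kb and 4.89% above 150 kb. The share called lower was 12.8%, 19.3%, 24%, 19.8% and 8.95% over the same bins, highest in the middle. Median changes by bin stayed between −0.11 and 0.12. Of 230 protein-coding genes with a single exon in every transcript, 18.7% were higher and 7.39% lower. Transcripts that code for no protein were seldom lower: 1.81% of lincRNA genes, 1.71% of antisense genes and 0.651% of processed pseudogenes, against 19.4% of protein-coding genes, while the shares called higher were 8.33%, 7.41%, 8.14% and 7.43%. Levels, and with them the power to call, differ between these classes, and no test was made.

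**Figure D4:**
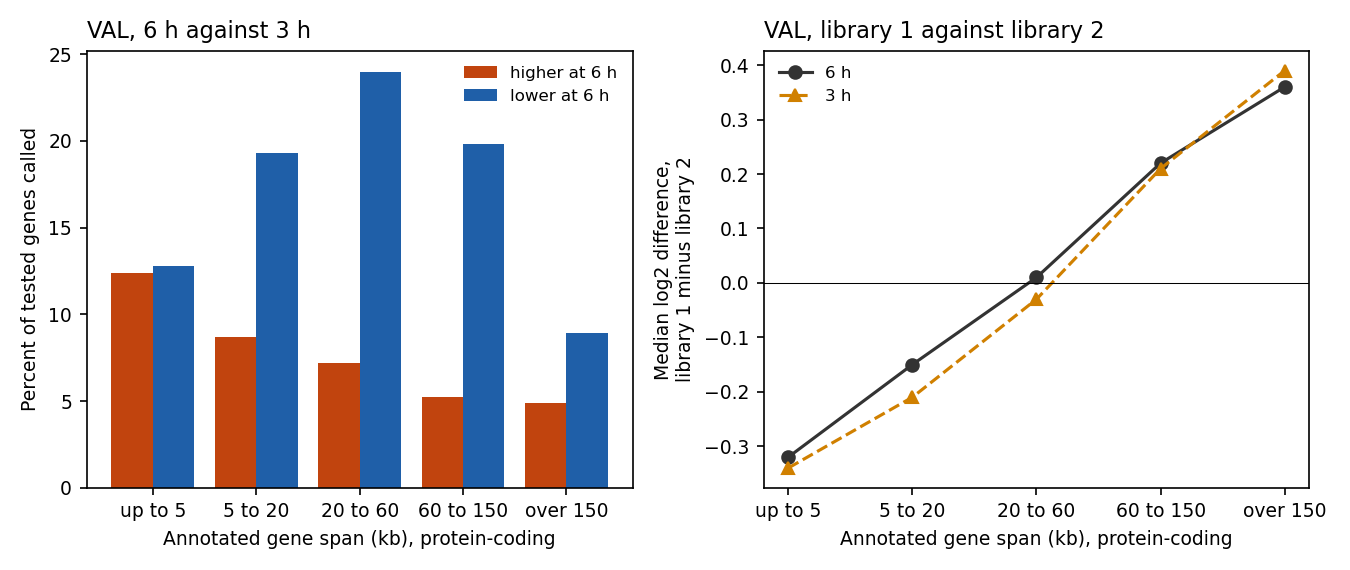
Left, percent of protein-coding genes called higher (red) and lower (blue) at 6 h over 3 h, by annotated gene span in kb. Right, median log2 difference of library 1 minus library 2 by the same bins, at 6 h (circles) and 3 h (triangles); it climbs with span from −0.32 to 0.36 at 6 h and from −0.34 to 0.39 at 3 h, while the 6 h over 3 h medians stay near 0.

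OCI-LY3, treated in the same way and sequenced on another lane, gave a second view of the interval that shares no library with VAL. There 1958 genes were higher at 6 h than at 3 h (12%) and 2670 lower (16.3%). Genes higher in both lines numbered 759, which is 61.5% of those higher in VAL and 38.8% of those higher in OCI-LY3. Genes lower in both numbered 1388, which is 55.5% of those lower in VAL and 52% of those lower in OCI-LY3. Opposite calls were few, with 22 genes higher in VAL and lower in OCI-LY3 and 18 the other way round. The difference between the lines in the 6 h over 3 h change passed for 570 genes (3.48%), with the VAL change above the OCI-LY3 change for 237 (1.45%) and below it for 333 (2.03%). That count is unsteady: it was 1932 without VAL 3 h library 1 and 1650 without VAL 6 h library 2, and 128, 101, 81 and 141 without OCI-LY3 3 h library 1, 3 h library 2, 6 h library 1 and 6 h library 2.

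The changes of MYC and PIM1 between 3 h and 6 h were smaller in VAL. MYC had 212 and 221 CPM at 6 h and 140 and 129 CPM at 3 h in VAL, against 435 and 404 CPM at 6 h and 109 and 103 CPM at 3 h in OCI-LY3. PIM1 had 83.7 and 90.5 CPM at 6 h and 42.8 and 38.3 CPM at 3 h in VAL, against 534 and 514 CPM at 6 h and 115 and 107 CPM at 3 h in OCI-LY3. The difference in log2 change was −1.30 ± 0.13 for MYC and −1.14 ± 0.13 for PIM1 (adjusted p = 0.00184 and 0.0027), and it passed whichever library was left out. BCL2L1, JUNB and BCL6 also differed, by −0.95 ± 0.16, −0.89 ± 0.19 and −0.82 ± 0.14 (adjusted p = 0.0111, 0.0338 and 0.0148), but with fewer libraries their adjusted p reached 0.0792, 0.128 and 0.0985. The difference did not pass for the other 15 of the 20 CDK9 and survival genes, MCL1 among them; this does not show that the lines changed alike.

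Among protein-coding genes with a mean of at least 5 CPM in both lines, the following were among those with the widest differences. GPR157 and PRELP fell short of that mean in OCI-LY3 and differed by 4.30 ± 0.48 and 2.21 ± 0.26 (adjusted p = 0.00239 and 0.00288). DTX4, a ubiquitin ligase of the Deltex family that overlaps MPEG1 on the other strand, had 32.7 and 37.5 CPM at 6 h and 8.92 and 7.64 CPM at 3 h in VAL, against 7.72 and 8.22 CPM at 6 h and 16.2 and 17.9 CPM at 3 h in OCI-LY3. CFL2, an actin-severing cofilin, had 3.74 and 3.47 CPM at 6 h and 2.65 and 2.35 CPM at 3 h in VAL, against 6.23 and 5.45 CPM at 6 h and 21.8 and 21.9 CPM at 3 h in OCI-LY3. DTX4 and CFL2 were higher at 6 h in VAL and lower at 6 h in OCI-LY3, with differences of 3.18 ± 0.18 and 2.43 ± 0.19 (adjusted p = 5.02e-05 and 0.000461) that passed whichever library was left out. By mitochondrial scaling the VAL change was 1.33 for DTX4 and −0.23 for CFL2. SESN2, a stress-induced regulator of mTORC1, had 5.22 and 11.0 CPM at 6 h and 1.54 and 2.99 CPM at 3 h in VAL, against 2.23 and 1.98 CPM at 6 h and 2.52 and 3.64 CPM at 3 h in OCI-LY3. GADD45B, an NF-kB-responsive gene, had 6.66 and 9.41 CPM at 6 h and 2.58 and 3.30 CPM at 3 h in VAL, against 60.4 and 49.0 CPM at 6 h and 6.49 and 5.89 CPM at 3 h in OCI-LY3. GINS3, a helicase subunit, had 2.50 and 3.71 CPM at 6 h and 5.91 and 9.87 CPM at 3 h in VAL, against 27.3 and 23.3 CPM at 6 h and 19.8 and 17.2 CPM at 3 h in OCI-LY3. These 3 differences, of 2.41 ± 0.53, −1.69 ± 0.27 and −1.80 ± 0.33, passed (adjusted p = 0.0369, 0.00967 and 0.0171), but reached 0.15, 0.0736 and 0.096 with 1 library left out; that of SESN2 was 1.79 without VAL 6 h library 2.

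**Figure D5:**
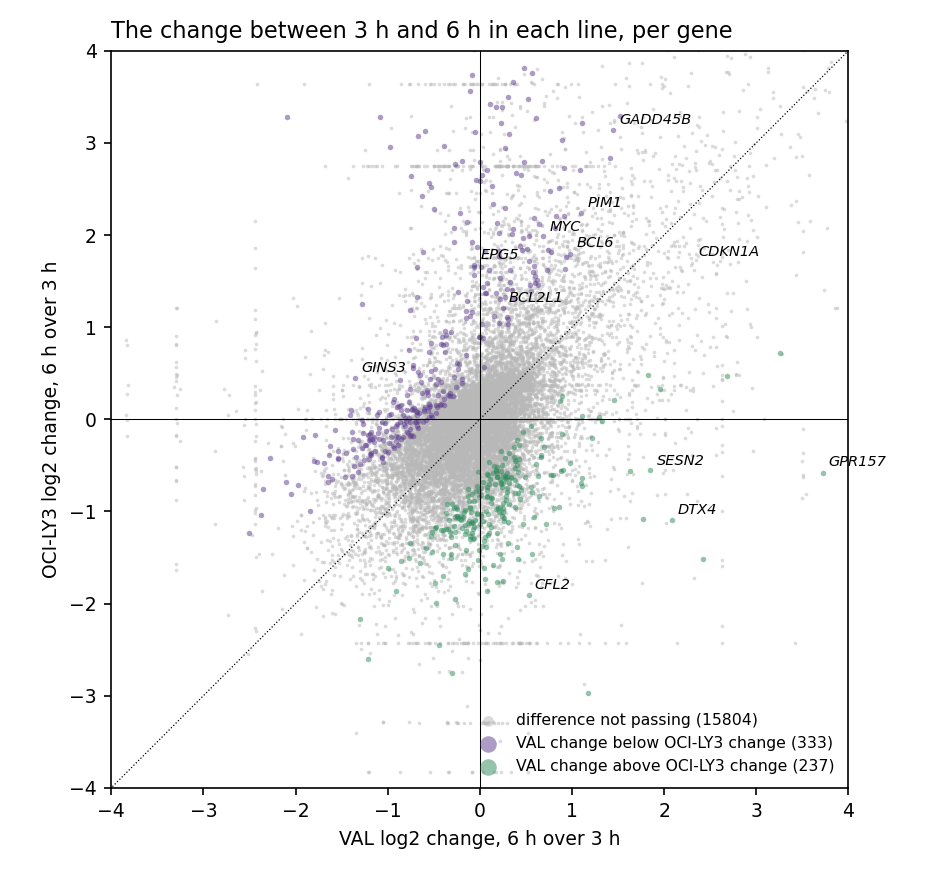
Each point is a gene; the x axis is the log2 change of 6 h over 3 h in VAL and the y axis the same change in OCI-LY3, with the dotted line where they are equal. Green points (237) have a VAL change above the OCI-LY3 change and purple points (333) one below it; MYC and PIM1 lie above the line and DTX4 and CFL2 below, and 295 of 16374 genes fall outside the axes.

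Mitotic genes were lower in both, 25 of 35 in VAL and 21 of 35 in OCI-LY3, with medians of −0.75 and −0.57. Of the mitochondrial ribosomal protein genes 37 of 77 were lower in VAL and 9 of 77 in OCI-LY3, with medians of −0.51 and −0.08; the difference itself passed for 4 members, all with the VAL change below. Mitochondrially encoded messages were called higher for 11 of 13 in VAL and for none in OCI-LY3, with medians of 0.77 and 0.36, yet the difference passed for none of them. NF-kB targets were higher for 12 of 38 in VAL and 15 of 38 in OCI-LY3, and the difference passed for 7, all with the VAL change below.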

How the data were processed

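Poly(A)+ RNA of 2 libraries in each of 6 groups was sequenced as single reads from an unstranded kit, per the labels' protocols. The authors deposited raw counts per gene; GRCh38 and DESeq2 are named in the submitters' processing notes, while aligner and counter are not given in the sources read. The authors also deposited a table of normalized log2 values, used for 1 alternative. Of 58233 genes, 35090 had a count and 16374 passed edgeR's expression filter. Counts of all 12 libraries were fitted in R 4.3.3 with edgeR 4.0.16 (TMM scaling, quasi-likelihood test, 6 residual degrees of freedom), with Benjamini-Hochberg adjustment over all genes tested; CPM uses the same scaling. The difference between lines is an interaction contrast in that fit. Alternatives used limma 3.58.1 and DESeq2 1.42.0. The method was also run on simulated data with planted changes. Those data held no difference between library numbers such as VAL showed at 3 h and 6 h, so its effect on the calls was not tested. Annotation came from GENCODE release 29 (57895 identifiers matched) and promoter windows from RefSeq.

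Members and lists were chosen with earlier results of these data known. Genes named are the CDK9 and survival list and the 12 highest and 12 lowest changes (mean of at least 5 CPM, groups not overlapping). Of each described list, up to 4 members with the smallest adjusted p were named, plus up to 2 against its majority. Added to these were the 5 highest and 5 lowest differences between lines (protein-coding, mean of at least 5 CPM in both). Others are said to be chosen after their values were seen. Lists were described by counts and medians, with no set test. Some genes that this rule selects are not reported here.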

Additional observations from a re-analysis of the deposited data

Results flagged for a closer look

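The following genes changed differently between 3 h and 6 h in VAL and in OCI-LY3, by the test of the difference itself (edgeR's quasi-likelihood test, adjusted over all genes tested). The VAL log2 change lay above that of OCI-LY3 by 3.18 for DTX4, 2.43 for CFL2, 2.41 for SESN2, 2.01 for DNMT3B and 1.96 for DSTYK. It lay on the other side, with differences of −1.80 for GINS3, −1.73 for EPG5, −1.72 for UTP23, −1.71 for TOPORS, −1.69 for GADD45B, −1.30 for MYC, −1.14 for PIM1, −0.95 for BCL2L1, −0.89 for JUNB and −0.82 for BCL6. Of these differences 4 were weaker by mitochondrial scaling, 5 by ribosomal scaling and 11 against a 1.5-fold minimum. The median difference over all genes was −0.06 on the scale used and −0.41 by mitochondrial scaling. The differences of DTX4, CFL2, MYC and PIM1 passed whichever library was left out; each of the others rose above 0.05 in at least 1 such fit.

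DNMT3B, a DNA methyltransferase, had 6.92 and 3.90 CPM at 6 h and 8.59 and 6.17 CPM at 3 h in VAL, against 1.19 and 0.747 CPM at 6 h and 5.03 and 5.43 CPM at 3 h in OCI-LY3. EPG5, an autophagy tether, had 22.6 and 13.3 CPM at 6 h and 21.5 and 16 CPM at 3 h in VAL, against 11.7 in each 6 h library and 3.83 and 3.54 CPM at 3 h in OCI-LY3. In both genes the VAL groups overlapped and the OCI-LY3 groups did not. DSTYK, a kinase, had 13.2 and 7.70 CPM at 6 h and 11.6 and 6.65 CPM at 3 h in VAL, against 1.48 and 1.93 CPM at 6 h and 5.47 and 6.24 CPM at 3 h in OCI-LY3. TOPORS, a SUMO and ubiquitin ligase, had 2.34 and 4.28 CPM at 6 h and 2.55 in each 3 h library in VAL, against 17.8 and 16.1 CPM at 6 h and 3.76 and 4.31 CPM at 3 h in OCI-LY3. UTP23 had 7.49 and 9.22 CPM at 6 h and 7.58 and 9.87 CPM at 3 h in VAL, against 17.7 and 13.8 CPM at 6 h and 5.11 and 4.87 CPM at 3 h in OCI-LY3; it and TOPORS overlap genes on the other strand, whose reads cannot be told apart here.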

How the results depend on the processing

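Across all alternatives tried, no called gene was called in the opposite direction. Genes higher numbered 2314 with upper-quartile factors, 356 by mitochondrial scaling, 426 by ribosomal scaling, 512 on VAL libraries alone, 72 on the 4 libraries alone and 373 against a 1.5-fold minimum; genes lower numbered 1485, 7672, 5424, 771, 32 and 587 in that order, and 1544 with a minimum mean of 5 CPM. At least 2-fold higher were 319 by mitochondrial scaling, 338 by ribosomal scaling, 185 with the 5 CPM minimum, 423 on VAL alone and 72 on the 4 libraries; 2-fold lower were 4909, 2453, 308, 398 and 32, and 376 with upper-quartile factors. The difference between lines was called for 277 genes by mitochondrial scaling, 1168 with no low-count filter and 1317 by DESeq2. Leaving out 1 library gave 1001 to 1680 genes higher, 2033 to 2927 lower, 514 to 887 at least 2-fold higher, 405 to 1030 at least 2-fold lower and 81 to 1932 for the difference.

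The shared replicate numbers were not taken as pairing, because the labels do not say that they pair libraries. The number 1 minus number 2 differences of 6 h and 3 h correlated at 0.5 over genes. Their correlations with those of 0 h were −0.045 and −0.031, but 0 h does not enter the contrast, so these cannot decide the pairing. With a replicate block 1564 genes were higher, 2858 lower and 1147 called for the difference. BCL2 and FOS passed (adjusted p = 0.0433 and 0.0359), while no other named gene changed its VAL call. In that fit 74 of 86 ribosomal protein genes and 5 of 40 replication genes were higher. With the block on the 4 libraries alone, added after seeing the data, 2815 were higher and 3579 lower. With the block and mitochondrial scaling, also added after seeing the data, 401 were higher, 9112 lower, 326 at least 2-fold higher and 4889 at least 2-fold lower.

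Leaving aside genes named only for the difference between lines, log2 changes that turned sign by mitochondrial scaling were E2F2 −0.16, CLK1 −0.01, CCNT2 −0.01, E2F3 −0.20, RPL22 −0.19, MYC −0.08, BCL2A1 −0.18, BCL2L11 −0.08, VAV2 −0.40, IER2 −0.19, WDR43 −0.31, JUNB −0.01, BCL2L1 −0.54, BCL2 −0.07, RPS23 −0.26, HEXIM1 −0.60. With the replicate block and mitochondrial scaling they were E2F2 −0.15, CLK1 −0.03, CCNT2 −0.03, E2F3 −0.19, RPL22 −0.18, MYC −0.08, BCL2A1 −0.15, BCL2L11 −0.08, VAV2 −0.40, IER2 −0.18, IER5 −0.00, WDR43 −0.29, JUNB −0.02, BCL2L1 −0.51, BCL2 −0.07, RPS23 −0.25, HEXIM1 −0.58. By ribosomal scaling they were VAV2 −0.14, WDR43 −0.02, BCL2L1 −0.23, HEXIM1 −0.27. Of the genes named only for the difference between lines, CFL2, TOPORS and DSTYK turned sign in VAL by mitochondrial scaling (−0.23, −0.37 and −0.56). TOPORS and DSTYK also did so by ribosomal scaling (−0.18 and −0.31). Other rises kept their sign by mitochondrial scaling but did not pass. Among these were KLF10 0.66, AEN 0.67, MED26 0.70, MSMO1 0.42 and MXD1 0.62. CDK9, which did not pass on the scale used, took 0.01, 0.02, 0.04, 0.05, 0.08, 0.11, 0.16, 0.19 in 10 settings, and −0.12 without 3 h library 1. By mitochondrial and ribosomal scaling it was lower, at −0.80 and −0.49 (adjusted p = 0.0231 and 0.0357). POLR2A was lower by mitochondrial scaling, at −0.92 (adjusted p = 0.0113), and did not pass by ribosomal scaling, at −0.68 (adjusted p = 0.0966). POLR2A took 0.03 with upper-quartile factors and 0.06 to −0.36 over the fits that left out 1 library (0.06 without 3 h library 1), HEXIM1 −0.03 to 0.39 (−0.03 without 6 h library 1) and BCL2 −0.07 without 6 h library 1. The cause of these shifts was not tested. At genes of few counts, such as FOS at under 1 CPM, the precision is low.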

Other observations

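Some lists not described above are given here, beside 7.54% higher and 15.3% lower over all genes. Of 20 KLF and circadian factors 7 were higher and 1 lower, with a median of 0.51 that was −0.23 by mitochondrial scaling. Of 20 JAK-STAT and SOCS genes 4 were higher and 1 lower, with a median of 0.02. Interferon-stimulated genes, with 7.14% higher and 14.3% lower, were near the shares over all genes. Zinc-finger genes had 8.02% higher and 8.25% lower. Of 38 proteasome genes 9 were lower at 6 h than at 3 h and none was higher, but 5 were lower without 3 h library 2 or 6 h library 1, 17 without 3 h library 1 and 20 without 6 h library 2. Of 424 zinc-finger genes 34 were higher (60 without 3 h library 1) and 35 lower, with a median of 0.06 on the scale used and −0.69 by mitochondrial scaling. Of 44 replication-dependent histone genes 4 were higher (7 without 6 h library 1) and none was lower, with a median of 0.48 on the scale used and −0.26 by mitochondrial scaling. Of 28 interferon-stimulated genes 2 were higher and 4 lower, or 8 lower without 6 h library 1 and 2 without 6 h library 2.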
